A study of Mus musculus with 4 samples.

Results

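The Notch genes described here are 10 genes taken by name from a matrix of 20076 gene rows: the 4 receptors Notch1, Notch2, Notch3 and Notch4, the 3 ligands Dll4, Jag1 and Jag2, and the 3 target genes Hey1, Heyl and Hes1. They were read in single-cell RNA-seq of whole lung from 4 mice, each giving 1 library. The 2 WT mice carried floxed ERG alleles (ERG fl/fl) with no Cre, and the 2 ERG CKO mice carried the same alleles with CDH5-CreER(T), a tamoxifen-inducible Cre under the promoter of the endothelial cadherin Cdh5. Mice of both groups received 5 daily tamoxifen injections of 0.5 mg, and lungs were taken 90 days later, so the controls share the floxed alleles and the drug, whereas the Cre is carried by the ERG CKO mice alone and cannot be told apart from the deletion. Ages of these 4 mice are not given in the sources used here.

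Notch receptors are read by contact between neighbouring cells. A Delta-like or Jagged ligand on a cell binds a receptor on the next cell, the receptor is cut at the membrane, and its intracellular part enters the nucleus and joins RBPJ to switch on target genes of the Hes and Hey families. In blood vessels Notch1 and Notch4 with Dll4 are known for arterial specification and for limiting sprouting, Jag1 on endothelium signals to the vessel wall, and Notch3 is the receptor of pericytes and smooth muscle.

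The libraries held 2264 and 2150 cells in WT and 3097 and 1852 cells in ERG CKO, with 11263911 to 18646776 unique molecular identifiers (UMIs, 1 per captured RNA molecule) per library and medians of 4611 to 4899 UMIs per cell. Cells were clustered and named from marker lists, and 2512 of them were endothelial cells (ECs): 1747 general capillary (gCap) ECs, 337 alveolar capillary (aCap) ECs or aerocytes, 169 vein, 66 artery and 25 lymphatic ECs, and 168 without a subtype name. A further cluster of 874 cells with endothelial markers and few UMIs was left out of every class. Levels are UMIs summed over the cells of a class within a library and scaled to 1000000 in all (CPM), and a gene is called changed at an adjusted p of at most 0.05 in the edgeR quasi-likelihood test on these sums, with n = 2 per group throughout. Erg itself, the targeted gene, was detected at 85.7 and 88.7 CPM in WT ECs and at 104 and 82.4 CPM in ERG CKO ECs (log2 fold change 0.07, SE 0.15, adjusted p = 0.889, edgeR). The matrix holds a single count per gene, so transcripts with and without the floxed part cannot be separated, and the groups are named below as the libraries are labelled. Of all cell barcodes, 7 occurred in 2 libraries.

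Notch1, Dll4 and Notch4 are shown by the sequence upstream of their start, because Notch1 and Dll4 were the members called lower in aCap ECs and the endothelial receptor Notch4 was not. ERG belongs to the ETS family, whose members bind a GGAA core. Below are the 250 bases before the RefSeq gene start (build GRCm38.p6, 5′ to 3′ on the strand of the gene), in lower case with AGGAAG or its reverse complement CTTCCT in capitals, for Notch1 at chr2:26503823-26504072 on the minus strand, Dll4 at chr2:119325534-119325783 on the plus strand and Notch4 at chr17:34564045-34564294 on the plus strand.
Notch1: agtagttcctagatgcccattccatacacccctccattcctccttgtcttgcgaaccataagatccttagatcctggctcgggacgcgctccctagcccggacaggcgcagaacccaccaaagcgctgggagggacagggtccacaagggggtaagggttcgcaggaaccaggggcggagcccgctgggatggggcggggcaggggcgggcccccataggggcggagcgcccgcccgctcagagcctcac
Dll4: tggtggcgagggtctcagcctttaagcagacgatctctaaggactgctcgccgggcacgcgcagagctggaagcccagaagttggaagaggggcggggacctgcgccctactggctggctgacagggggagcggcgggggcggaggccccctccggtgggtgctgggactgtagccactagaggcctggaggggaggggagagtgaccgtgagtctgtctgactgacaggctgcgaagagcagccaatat
Notch4: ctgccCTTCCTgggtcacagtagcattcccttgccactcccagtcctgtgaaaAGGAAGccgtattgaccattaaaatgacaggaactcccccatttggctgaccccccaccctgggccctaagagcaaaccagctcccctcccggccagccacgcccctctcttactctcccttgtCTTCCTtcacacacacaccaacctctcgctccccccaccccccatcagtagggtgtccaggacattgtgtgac
In Notch4 the motif occurred 3 times, starting 245, 197 and 73 bases before the gene start, and it occurred in none of the windows of Notch1, Notch2, Notch3, Dll4, Jag1 and Jag2. Among the 32851 promoter windows of the same length, 29.5% held it. The letters TGGGAA (reverse complement TTCCCA), which RBPJ binds, were in none of these 7 windows and in 21.6% of all windows. A match is a run of letters and not a bound site, and a window without one says nothing of the factor. In the GENCODE vM21 annotation the Notch1 gene spans chr2:26457903-26516663, so the Notch1 window lies within a longer gene model, Dll4 spans chr2:119325784-119335962, starting at the base after its window, and Notch4 spans chr17:34564268-34588503, whose first exon overlaps the end of its window.

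Each Notch gene had its own pattern across the lung in the WT libraries. The endothelial genes Notch4, Dll4, Hey1 and Jag1 were highest in artery ECs, and Notch3 and Heyl were highest in mural cells (pericytes and smooth muscle). Notch2 was highest outside the endothelium, in neutrophils, monocytes, mural cells and B cells. Classes were set from the same cells, so their order is a description without a test, and levels are compared between classes for a given gene and not between genes.

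Among the receptors, Notch1 averaged 370 CPM in artery ECs, 302 CPM in lymphatic ECs, 294 CPM in mural cells, 260 CPM in gCap ECs, 239 CPM in aCap ECs and 234 CPM in vein ECs. The ranges of the 2 WT libraries overlapped between neighbours in this order, except between mural cells and gCap ECs. Its lowest level was 13.4 CPM, in B cells. Notch4 averaged 153 CPM in artery ECs and 140 CPM in gCap ECs, which overlapped, and then 84.7, 77.4 and 75.4 CPM in mural cells, aCap ECs and vein ECs, all below gCap ECs in both libraries. Notch3 was detected at 438 and 463 CPM in mural cells of the 2 WT libraries and averaged at most 17.1 CPM in any other class. Notch2 averaged 162 CPM in neutrophils, 136 CPM in monocytes, 122 CPM in mural cells and 86.1 CPM in B cells, each overlapping the next, and 4.59 to 9.84 CPM in gCap, aCap, artery and vein ECs.

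Of the ligands, Dll4 averaged 189 CPM in artery ECs, 136 CPM in gCap ECs and 117 CPM in aCap ECs but 10.3 CPM in vein ECs. The artery libraries (134 and 245 CPM) overlapped the gCap libraries (129 and 143 CPM), and the aCap libraries (129 and 104 CPM) overlapped the lymphatic ones. Jag1 was highest in artery ECs (82.2 and 104 CPM) and averaged 66.3 CPM in vein ECs and 61.2 CPM in gCap ECs, whereas aCap ECs averaged 11.2 CPM. Jag2 went the other way, with its highest mean in aCap ECs (49.3 and 28.0 CPM), overlapping gCap ECs (29.0 and 25.7 CPM).

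The target genes separated the compartments further. Hey1, a transcriptional repressor, averaged 231 CPM in artery ECs and 174 CPM in gCap ECs, which overlapped, against 14.2 CPM in aCap ECs and 26.2 CPM in vein ECs. Heyl, its relative, averaged 95.8 CPM in mural cells and 34.1 CPM in fibroblasts, did not overlap between them, and averaged at most 9.16 CPM elsewhere. Hes1, a repressor used in many cell types, averaged 700 CPM in lymphatic ECs (34 UMIs in all), 538 CPM in mural cells, 376 CPM in gCap ECs, 342 CPM in vein ECs and 335 CPM in monocytes. It averaged 195 CPM in artery ECs and 4.27 CPM in alveolar macrophages.

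**Figure D1:**
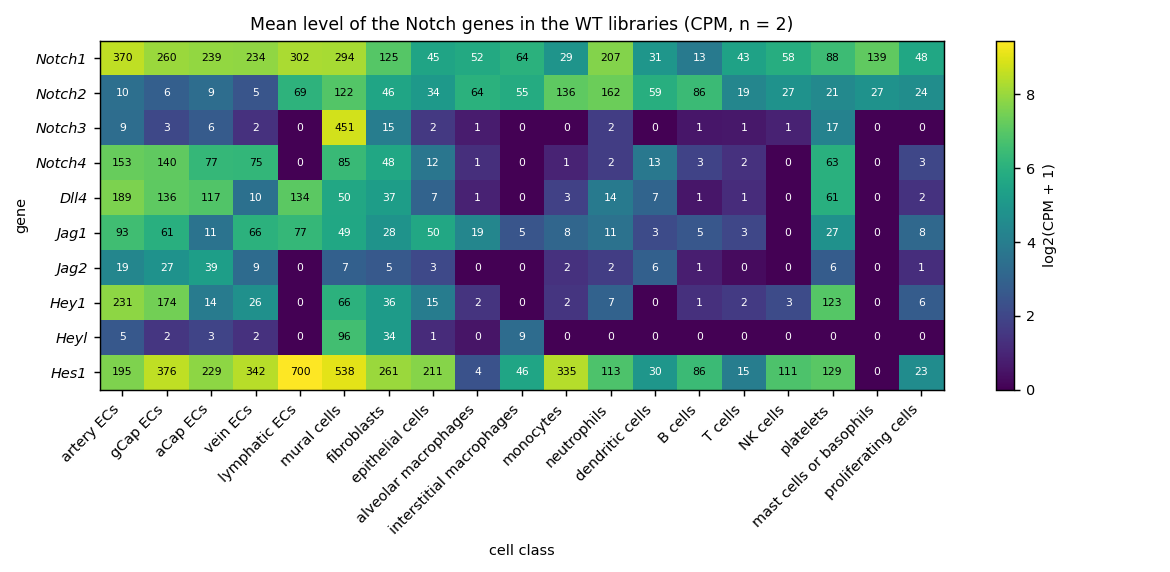
Mean level of the 10 Notch genes (rows) in the 19 named classes (columns) of the 2 WT libraries. Cells give the mean CPM and colours log2(CPM + 1). Notch3 (451 CPM) and Heyl (95.8 CPM) peak in mural cells, Dll4, Hey1 and Notch4 in artery and gCap ECs, and Notch2 in neutrophils and monocytes. The 3' captured counts are not corrected for gene length, so rows are not compared with each other.

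Genes with the most similar pattern over the 19 classes were listed by Pearson's r of log2(CPM + 10), means of the WT libraries, among 11652 genes. For Notch1 the closest was Arap3 (r = 0.921), for Notch4 1110038F14Rik (r = 0.968) followed by Gm29107 and Sox13, and for Dll4 Abi3bp (r = 0.946) followed by Efnb2 (r = 0.944), the arterial ephrin. Notch3 was closest to Ndufa4l2 (r = 0.985) and Vtn (r = 0.982), Heyl to Meg3 (r = 0.959) and Hey1 to Bmp6 (r = 0.966). Notch2, Jag1, Jag2 and Hes1 had their nearest genes at r = 0.8 (Fam134b), 0.929 (Usp46), 0.924 (Atp6v0e2) and 0.837 (Stim2). The classes come from the same libraries and differ in depth, and these values are descriptions.

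In ERG CKO, Notch1 was lower than in WT over all ECs, and Notch1 and Dll4 were lower in aCap ECs. No member was called higher in any class tested. In ECs together, 8 of the 10 members passed the filter on low counts (Notch3 and Heyl did not), 1 was called, and 7 of the 8 had a log2 fold change below 0, with a median of -0.48 against 0.006 over all genes tested. Of all 10703 genes tested in ECs, 3.34% were called. The 5 members at an unadjusted p under 0.05 were Notch1, Dll4, Hey1, Jag1 and Jag2. No share of all genes at this unadjusted limit was taken, here or below. The shares printed are for adjusted calls and are no background for such counts.

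Notch1, the main endothelial receptor, was detected in ECs at 275 and 238 CPM in WT and at 169 and 131 CPM in ERG CKO, from 742, 756, 778 and 354 UMIs. Both ERG CKO libraries lay below both WT libraries, and the fall was 1.75-fold (log2 fold change -0.81, SE 0.16, adjusted p = 0.0432, edgeR). The call was not kept without WT replicate 1 (adjusted p = 0.159), without WT replicate 2 (0.0583), with cells of at most 10% mitochondrial counts (0.0510), without alignment of the libraries before clustering (0.0501) or with the low-depth endothelial cluster added (0.0510). ECs held 43 and 73 aCap cells in WT and 118 and 103 in ERG CKO, so the sum over ECs mixes subtypes in different shares. Of the marker lists in ECs, 4 of 9 gCap markers (7103 and 6351 against 4689 and 4764 CPM) and 2 of 7 lymphatic markers were called lower, and 4 of 4 tested erythroid genes (34.9 and 50.6 against 1542 and 2201 CPM), 2 of 7 tested platelet markers and 3 of 5 tested interstitial macrophage markers were called higher. Called higher too was 1 marker each of the aCap, monocyte, dendritic cell and NK cell lists. Of the 8 pan-endothelial markers 1 was called lower and 1 higher. The part of these lists in the Notch1 value was not tested.

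Dll4, the ligand of tip and arterial cells, was detected in ECs at 116 and 127 CPM in WT and at 71.7 and 90.9 CPM in ERG CKO. The groups did not overlap (log2 fold change -0.63, SE 0.14), and the adjusted p of 0.0651 (edgeR) missed the threshold. Hey1 was detected at 113 and 156 CPM in WT and at 63.9 and 112 CPM in ERG CKO (-0.68, SE 0.26, adjusted p = 0.230). The groups did not overlap, but the higher ERG CKO library lay just under the lower WT library. Jag1 (53.4 and 57.9 against 47.0 and 35.6 CPM) and Jag2 (27.8 and 23.0 against 19.1 and 17.1 CPM) were also lower in both ERG CKO libraries, with adjusted p of 0.246 and 0.255. Notch4 overlapped between groups (134 and 111 against 117 and 108 CPM, log2 fold change -0.16), and Hes1 was detected at 349 and 337 against 328 and 332 CPM (-0.10, SE 0.12).

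In aCap ECs, the thin capillary cells that lie against the alveoli, Notch1 and Dll4 were lower by more than in gCap ECs. There 5 members passed the filter and 2 were called, both lower, beside 10.8% of the 7071 genes tested (409 of the 763 called genes were lower). The median log2 fold change was -1.07 for the 5 members and 0.022 over all genes. In aCap ECs Notch1 was detected at 252.5 and 226 CPM in WT and at 57.4 and 55.6 CPM in ERG CKO, from 82, 121, 41 and 33 UMIs. The ERG CKO libraries lay close together and far under both WT libraries, a 4.27-fold fall (log2 fold change -2.09, SE 0.21, adjusted p = 4.1e-06, edgeR) that was called under all 12 alternatives, with -1.44 as the smallest. Dll4 fell 3.47-fold, from 129 and 104 CPM to 33.6 and 33.7 CPM (-1.80, SE 0.28, adjusted p = 0.000261, edgeR). Without alignment, where the class held 56, 81, 341 and 283 cells, the value for Dll4 was -0.56 with an adjusted p of 0.0967, so the call of Dll4 depended on this setting.

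The other members of aCap ECs moved less or were too low to test. Jag2 was detected at 49.3 and 28.0 CPM in WT and at 15.4 and 20.2 CPM in ERG CKO (-1.07, SE 0.44, adjusted p = 0.150, edgeR), below WT in both libraries, and was called without alignment (-1.38, adjusted p = 0.0340). Notch4 (80.1 and 74.6 against 63.0 and 64.0 CPM) and Hes1 (219 and 239 against 217 and 254 CPM) had log2 fold changes of -0.30 and 0.01. The levels of the target gene Hes1 overlapped between the aCap libraries that differed in Notch1. Notch2, Notch3, Jag1, Hey1 and Heyl had at most 12 UMIs in any aCap library and were not tested.

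As a share of cells with a UMI, Notch1 was detected in 83.7% and 80.8% of WT aCap cells and in 22.0% and 28.2% of ERG CKO aCap cells. Median UMIs per aCap cell were 6992, 7455, 5730 and 5591 in these libraries. With every cell thinned to 1000 UMIs, which left out no aCap cell, the shares were 20.9% and 13.7% against 5.93% and 5.83%. Dll4 was detected in 58.1% and 49.3% of the WT aCap cells against 14.4% and 18.4% in ERG CKO, and in 14.0% and 9.59% against 3.39% and 4.85% after thinning. In B cells, which served as the background of free RNA at median depths of 3942 to 5062 UMIs, Notch1 was detected in 3.45% to 10.8% of cells and Dll4 in at most 1.04%. B cells can express Notch receptors themselves, so its share there is an upper value for the background. Shares in aCap cells were above it in all 4 libraries.

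Other genes of the aCap class moved as well. All 8 aCap markers, among them Car4 and Ednrb, were called lower, with summed levels of 14184 and 14345 CPM in WT and 4882 and 6592 CPM in ERG CKO, and 4 of 8 pan-endothelial markers were called lower and 1 higher (sums 22724 and 22079 against 13346 and 13398 CPM). Of 10 dissociation and stress genes, 4 were called higher (8010 and 8869 against 13239 and 10324 CPM), and the platelet list was at 73.9 and 153 against 337 and 182 CPM with 2 of the 4 tested higher. Markers of other EC subtypes were higher, with 2 of 2 tested artery markers (summed list 277 and 177 against 839 and 657 CPM) and 1 of 4 tested vein markers (89.3 and 103 against 291 and 269 CPM) called. The part of these lists in the Notch results was not tested.

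**Figure D2:**
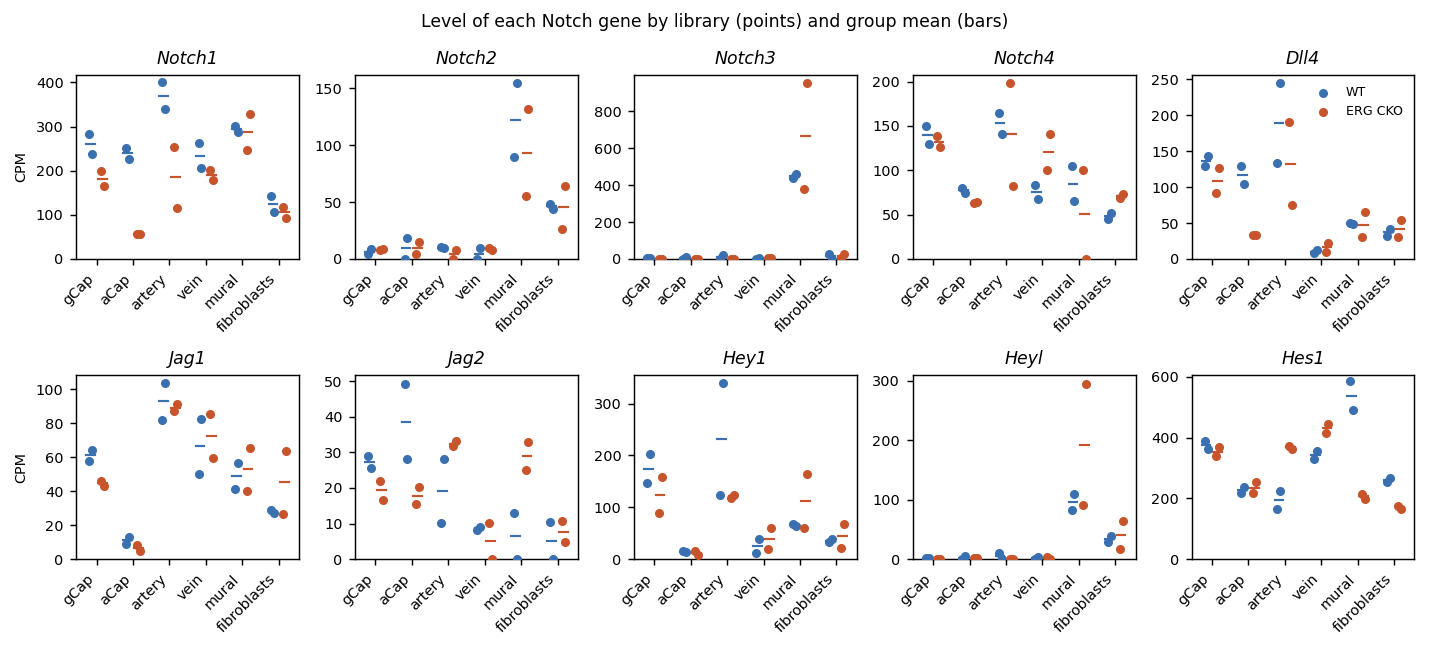
Level in CPM of each Notch gene (panels) in 6 classes, with a point per library, bars for the group means, WT in blue and ERG CKO in orange. In aCap ECs the ERG CKO points of Notch1 (57.4 and 55.6 CPM) and Dll4 (33.6 and 33.7 CPM) lie far under the WT points, while the points of Hes1 overlap.

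In gCap ECs no member was called. Of the 8 members that passed the filter 3 had an unadjusted p under 0.05 and 0 were called by edgeR or DESeq2, beside 3.61% of the 9885 genes tested. The median log2 fold change was -0.43 for the members and 0.002 over all genes. Notch1 was detected at 284 and 237 CPM in WT and at 199 and 165 CPM in ERG CKO (-0.55, SE 0.16, adjusted p = 0.115, edgeR), with no overlap. Without alignment, where the class held 453, 524, 239 and 177 cells, the value was -0.082 (adjusted p = 0.959) for Notch1, -0.082 for Jag1 and -0.19 for Hey1. Dll4 (129 and 143 against 91.2 and 127 CPM, -0.37) and Jag1 (58.1 and 64.3 against 46.0 and 43.2 CPM, -0.49) were lower in both ERG CKO libraries as well. Hey1 overlapped (146 and 202 against 89.2 and 159 CPM, -0.56, adjusted p = 0.317), as did Notch4 (150.0 and 130 against 138 and 126 CPM, -0.11) and Hes1 (388 and 363 against 338 and 370 CPM, -0.12).

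The gCap class was made of 4 clusters, which were also tested apart. In cluster 0, 2 of 7 members tested were called (3.89% of genes). The median log2 fold change there was -0.615 for the members and 0.005 over all genes. Notch1 was detected there at 247 and 207 against 153 and 124 CPM (-0.73, SE 0.19, adjusted p = 0.0304, edgeR) and Hey1 at 143 and 193 against 80.1 and 112 CPM (-0.87, SE 0.21, adjusted p = 0.0231, edgeR). In cluster 1, led by Cxcl12, Lpl and Sema3g, 0 of 7 members were called (0.568% of genes) and 4 had an unadjusted p under 0.05. Its mean Hey1 in WT was the highest of the 4 clusters (230.7 and 290 CPM), overlapping cluster 6 (185 and 231.2 CPM). In cluster 2, led by interferon-response genes such as Ifit1 and Cxcl10, 0 of 7 were called (0.795% of genes) and 1 had an unadjusted p under 0.05. In the smallest, cluster 6, 0 of 5 were called (5.26% of genes) and none had an unadjusted p under 0.05. DESeq2 was not run on these clusters.

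Hes1 gave values of opposite sign in 2 of these clusters. It was detected in cluster 1 at 319 and 363 CPM in WT and at 223 and 246 CPM in ERG CKO (-0.56, SE 0.19, adjusted p = 0.363, edgeR). In cluster 2 it was detected at 225 and 252 CPM in WT and at 378 and 394 CPM in ERG CKO (0.66, SE 0.19, adjusted p = 0.162, edgeR). The groups did not overlap in either cluster, neither value passed the test over all genes, and the difference between clusters was not tested. Notch4 had values from -0.29 to 0.09 in clusters 0, 1 and 2 and -0.52 (SE 0.55) in cluster 6.

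**Figure D3:**
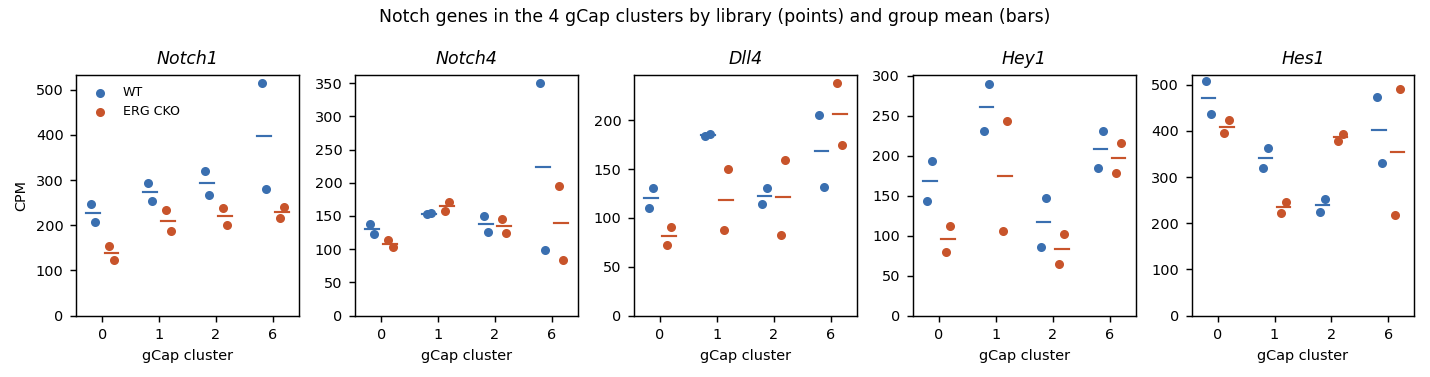
Level in CPM of Notch1, Notch4, Dll4, Hey1 and Hes1 in gCap clusters 0, 1, 2 and 6, with a point per library, bars for the group means, WT in blue and ERG CKO in orange. Notch1 and Hey1 are lower in ERG CKO in cluster 0, and Hes1 is lower in cluster 1 and higher in cluster 2 in both ERG CKO libraries.

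Markers of other kinds moved with the groups in gCap ECs too. Of 9 gCap markers 3 were called lower (8780 and 8328 against 6283 and 6684 CPM), 4 of 10 stress genes were called lower (17917 and 18855 against 13524 and 14017 CPM), and 5 of 5 haemoglobin and erythroid genes were called higher (35.5 and 47.5 against 2794 and 3805 CPM). Markers of other EC subtypes were also called higher, 5 of 7 tested for aCap (470 and 341 against 670 and 795 CPM), 4 of 9 for vein (592 and 523 against 965 and 762 CPM) and 1 of 6 for artery ECs. Called higher too were 3 of 5 interstitial macrophage, 2 of 5 platelet and 1 of 1 dendritic cell markers tested. Their part in the result was not tested.

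Whether the effect differed between subtypes was tested directly, in a fit with the library as a term. The effect in aCap ECs was more negative than in gCap ECs for Notch1 by 1.58 on the log2 scale (-1.58, SE 0.23, adjusted p = 4.5e-06, edgeR) and for Dll4 (-1.42, SE 0.30, adjusted p = 0.00112, edgeR). These were 2 of 8 members tested, beside 6.88% of genes. With no alignment the difference for Notch1 was -1.36, whereas that for Dll4 was -0.08 with an adjusted p of 0.92. The 3 members called without alignment were Notch1, Hey1 and Jag2. Between vein and gCap ECs 0 of 7 members differed (0.888% of genes) with none at an unadjusted p under 0.05, and between artery and gCap ECs 0 of 7 differed (0.472% of genes) with 1, Hes1, at an unadjusted p under 0.05 (0.98, SE 0.36, adjusted p = 0.426, edgeR). DESeq2 was not run on these differences.

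Artery ECs were few, with 13 to 20 cells per library. Of 6 members that passed the filter 0 were called by edgeR or DESeq2 and 2 had an unadjusted p under 0.05, in a class where 0.0% of 2134 genes were called. Notch1 was detected there at 401 and 339 CPM in WT and at 253 and 116 CPM in ERG CKO (-0.98, SE 0.39, adjusted p = 0.605, edgeR), and was called without ERG CKO replicate 1 (-1.64, adjusted p = 0.0237). Hes1 was higher in both ERG CKO libraries, at 164 and 226 against 372 and 364 CPM (0.92, SE 0.32, adjusted p = 0.551, edgeR), and missed the threshold. Dll4 (134 and 245 against 190 and 74.5 CPM) and Hey1 (123 and 339 against 119 and 124 CPM) rested on 9 to 36 UMIs per library. Dll4 varied within both groups and Hey1 within WT.

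In vein ECs 0 of 5 members were called by edgeR or DESeq2 and none had an unadjusted p under 0.05, beside 0.186% of genes. Notch1 was detected at 263 and 205 against 201 and 178 CPM (-0.33), Notch4 at 83.4 and 67.3 against 101 and 141 CPM (0.54), and Hes1 at 329 and 355 against 417 and 446 CPM (0.26). Jag1 (50.1 and 82.6 against 85.4 and 59.5 CPM, 0.14) and Hey1 (12.5 and 39.8 against 20.1 and 59.5 CPM, 0.03) overlapped between groups. Lymphatic ECs held 3 to 8 cells per library and were not tested.

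**Figure D4:**
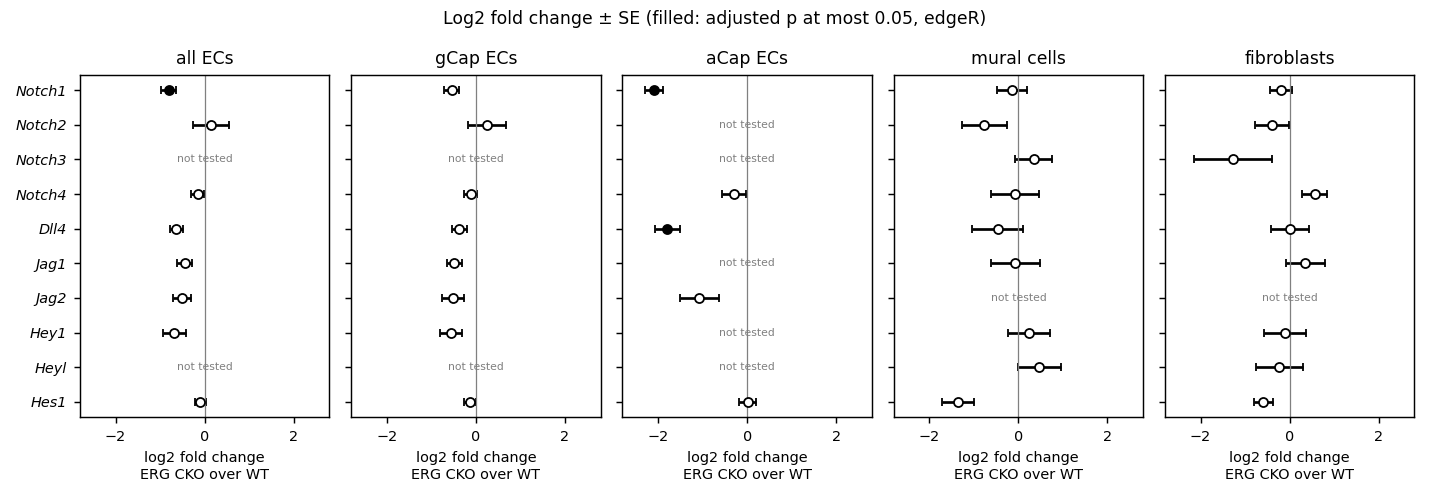
Log2 fold change of ERG CKO over WT with its standard error for the 10 Notch genes in all ECs, gCap ECs, aCap ECs, mural cells and fibroblasts, from edgeR on sums per library (n = 2 per group). Filled points have an adjusted p of at most 0.05: Notch1 in all ECs (-0.81) and Notch1 (-2.09) and Dll4 (-1.80) in aCap ECs.

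Outside the endothelium, mural cells carry Notch3 and Heyl, and the Cdh5 promoter of the Cre is known for activity in ECs. The class held 69, 49, 46 and 15 cells, and its cells in ERG CKO replicate 2 had a median of 1044 UMIs. Of 9 members tested 0 were called by edgeR or DESeq2 and 1 had an unadjusted p under 0.05, beside 0.0464% of genes. Notch3 was detected at 438 and 463 CPM in WT and at 377 and 952 CPM in ERG CKO, from 235, 114, 75 and 29 UMIs (0.34, SE 0.42, adjusted p = 0.987, edgeR), and Heyl at 82.1 and 110 against 90.5 and 295 CPM (0.47, SE 0.48). For both genes the 2 ERG CKO libraries differed by more than the groups did.

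Hes1 in mural cells was detected at 586 and 491 CPM in WT and at 216 and 197 CPM in ERG CKO, from 314, 121, 43 and 6 UMIs. Both ERG CKO libraries were below both WT libraries (-1.36, SE 0.35, unadjusted p = 0.00355, adjusted p = 0.665, edgeR). Without ERG CKO replicate 2, the library with 6 UMIs, the adjusted p was 0.0381. The effect in mural cells minus that in ECs was -1.34 (SE 0.44, adjusted p = 0.268, edgeR), and -1.23 with an adjusted p of 0.0446 without that library. In that comparison 0 of 10 members were called, 4 had an unadjusted p under 0.05, and 0.398% of genes were called.

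Endothelial RNA was present in the mural class. The 8 pan-endothelial markers summed to 7783 and 5162 CPM in WT and 6008 and 2987 CPM in ERG CKO, and none was at 0 when summed over the libraries. The part of this RNA in the Notch1, Notch4, Dll4 and Hey1 counts of the class was not tested. Pericyte markers summed to 4917 and 7093 against 5088 and 11555 CPM, smooth muscle markers to 453 to 755 CPM, and stress genes to 16177 and 19490 against 11759 and 4793 CPM, with none of the members of these lists called. Their part in the Hes1 values was not tested.

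In fibroblasts 0 of 9 members were called by edgeR or DESeq2 and 1 had an unadjusted p under 0.05, beside 0.721% of genes. That member was again Hes1, at 255 and 267 CPM in WT and 174 and 167 CPM in ERG CKO (-0.60, SE 0.21, adjusted p = 0.397, edgeR), without overlap. Among marker lists in this class, 2 of 11 fibroblast markers were called lower (12157 and 12919 against 6853 and 9036 CPM), and 6 of 6 tested platelet markers (79.9 and 78.5 against 492 and 844 CPM) and 3 of 5 tested interstitial macrophage markers (2392 and 2525 against 3447 and 8452 CPM) were called higher. Called higher too was 1 marker each of the endothelial, vein, mural and erythroid lists. Called lower was 1 marker each of the smooth muscle and neutrophil lists. The part of these lists in the Hes1 values was not tested. Notch4 was detected at 45.2 and 51.5 against 68.3 and 73.6 CPM (0.56, adjusted p = 0.614), and the other 7 overlapped between the groups.

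In the 10 further classes no member was called. The number of members tested was 6 in epithelial cells (0.0% of genes called), 3 in alveolar macrophages (0.0%), 4 in monocytes (0.0126%), 3 in neutrophils (0.0%), 3 in dendritic cells (0.734%), 3 in B cells (0.0889%), 3 in T cells (0.0334%), 3 in NK cells (0.0776%), 1 in platelets (0.0%) and 4 in proliferating cells (0.0%). An unadjusted p under 0.05 was reached by Hes1 in neutrophils, B cells and NK cells and by 3 members in proliferating cells. DESeq2 was not run on these classes.

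Notch2, the receptor of myeloid and B cells, overlapped between groups in monocytes and B cells. Its values were further from 0, and not called, in epithelial cells (-0.85, SE 0.48) and proliferating cells (0.80, SE 0.46). In monocytes Notch2 was detected at 134 and 138 CPM in WT and 127 and 160 CPM in ERG CKO (-0.0023, SE 0.17), and in B cells at 78.1 and 94.2 against 66.4 and 96.1 CPM (-0.11, SE 0.22). Hes1 was detected in NK cells at 111 and 111 against 167 and 180 CPM (0.64, SE 0.20, adjusted p = 0.633, edgeR) and in B cells at 106 and 65.1 against 57.2 and 45.4 CPM (-0.65, adjusted p = 0.784), with no overlap in either. In neutrophils it was detected at 180 and 45.2 against 21.9 and 3.26 CPM, from 22, 10, 8 and 1 UMIs.

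Notch1 was detected in alveolar macrophages at 51.3 and 53.3 against 54.2 and 58.1 CPM (0.11, SE 0.16) and in T cells at 38.9 and 46.8 against 48.2 and 49.9 CPM (0.21, SE 0.17). Notch2 was detected in dendritic cells at 51.7 and 66.9 against 57.0 and 67.1 CPM (0.03, SE 0.29). In epithelial cells Jag1 was at 46.0 and 54.4 against 56.1 and 39.9 CPM (-0.34, SE 0.28) and Hes1 at 131 and 291 against 152 and 208 CPM (-0.52, SE 0.43), and in platelets Hes1, the only member tested, was at 183 and 75.8 against 157 and 42.9 CPM.

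Proliferating cells, a mixture of lineages that carry cell-cycle genes, held 16 to 35 cells per library. Notch4 was detected there at 3.27 and 2.71 CPM in WT and at 48.7 and 29.2 CPM in ERG CKO, from 2, 1, 28 and 7 UMIs (adjusted p = 0.172, edgeR). Notch1 (39.3 and 56.9 against 104 and 70.8 CPM) and Hes1 (16.4 and 29.8 against 64.3 and 75.0 CPM) were likewise higher in both ERG CKO libraries, with adjusted p of 0.770 and 0.349. Which lineages made up this class in each library was not tested.

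The rest of the pathway was read from a list of 62 further genes (ligand-like genes, ligand ubiquitination, receptor glycosylation and cleavage, the nuclear complex, co-repressors, inhibitors and further targets), of which 61 were in the matrix. In ECs 50 were tested, and 2 were called lower and 0 higher, beside 3.34% of all 10703 genes tested. Lfng, the lunatic fringe enzyme that adds sugar to Notch receptors and shifts their response between ligands, was detected at 49.7 and 64.2 CPM in WT and at 23.0 and 26.0 CPM in ERG CKO (-1.27, SE 0.18, adjusted p = 0.0143, edgeR). Numb, an adaptor that antagonizes Notch, was detected at 294 and 281 against 177 and 194 CPM (-0.67, SE 0.12, adjusted p = 0.0306, edgeR). Both were also called lower in gCap ECs by edgeR (-1.08 and -0.58), 2 of 50 tested, beside 3.61% of all 9885 genes tested. DESeq2 called 0 of the listed genes there.

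In aCap ECs 8 of 41 listed genes were called, beside the same 10.8% of all genes, with 5 lower and 3 higher, and DESeq2 called 6 of the 41. Receptor glycosylation gave 2 of 4 tested, both lower. Lfng was detected at 55.4 and 97.0 against 21.0 and 6.74 CPM (-2.47, SE 0.43, adjusted p = 0.00078, edgeR). Its relative Mfng, manic fringe, was detected at 216 and 194 against 99.3 and 75.8 CPM (-1.23, SE 0.21, adjusted p = 0.000686). Both fringe genes were lower in both ERG CKO libraries.

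Also lower in aCap ECs were Numb (296 and 313 against 137 and 162 CPM, -1.06), Egfl7, a secreted endothelial protein that can bind Notch (1983 and 2116 against 1150 and 1177 CPM, -0.84), and Aph1a, a subunit of the gamma-secretase that cuts the receptor (157 and 146 against 96.5 and 92.6 CPM, -0.69). No co-repressor was called of 10 tested. Aph1a had an adjusted p of 0.0427 (edgeR) and 0.598 in DESeq2.

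Higher were Neurl3, Hey2 and Maml3. Neurl3, of the neuralized ubiquitin ligase family, was detected at 33.9 and 44.8 CPM in WT and 246 and 195 CPM in ERG CKO, a 5.36-fold rise (2.42, SE 0.25, adjusted p = 5.8e-06, edgeR). Hey2, a target gene of the family of Hey1, had 0 UMIs in both WT libraries and 17 and 18 UMIs in ERG CKO (23.8 and 30.3 CPM, adjusted p = 0.000962, edgeR), at least 7.67-fold higher when WT is set at 3 counts over both libraries. Maml3, a coactivator of the nuclear complex, was detected at 43.1 and 37.3 against 79.8 and 111 CPM (1.23, SE 0.30, adjusted p = 0.0111, edgeR, and 0.282 in DESeq2).

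**Figure D5:**
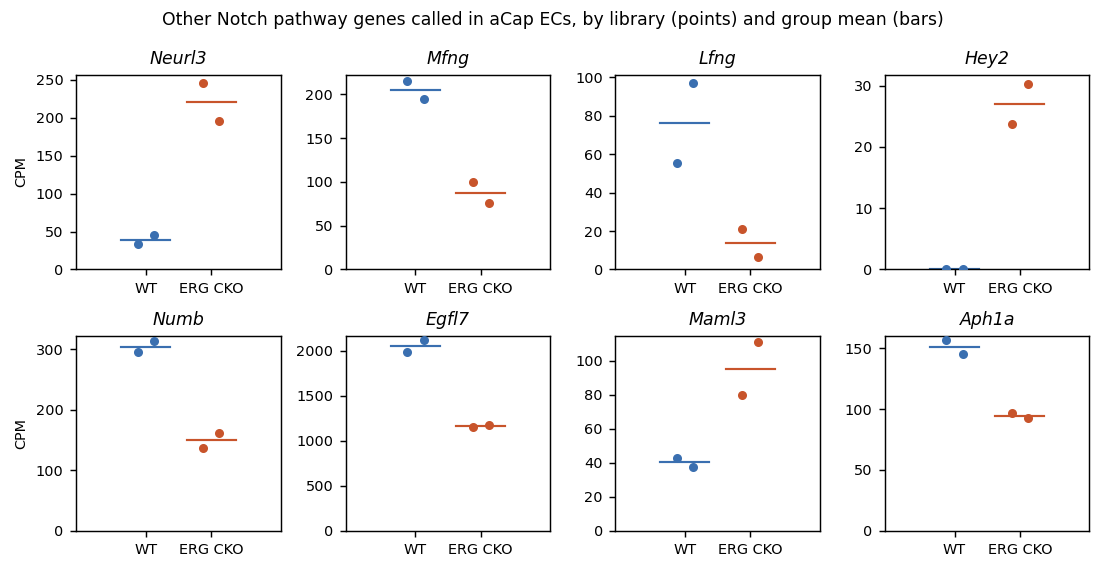
Level in CPM of the 8 further Notch pathway genes called in aCap ECs, with a point per library and bars for the group means. Neurl3, Hey2 and Maml3 are higher and Mfng, Lfng, Numb, Egfl7 and Aph1a lower in both ERG CKO libraries.

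The effect in aCap minus that in gCap ECs was called for Neurl3 (2.08, SE 0.28, adjusted p = 8.7e-07, edgeR), Mfng (-1.20, SE 0.25, adjusted p = 0.000888) and Egfl7 (-0.55, SE 0.14, adjusted p = 0.0115) among these 8. It was not called for Lfng (-1.38, SE 0.45, adjusted p = 0.0543), Hey2, Numb, Maml3 or Aph1a. In artery ECs (20 tested), vein ECs (33), mural cells (33) and fibroblasts (45) edgeR and DESeq2 called 0 of the listed genes, with 1, 2, 1 and 0 of them at an unadjusted p under 0.05.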

How the data were processed

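Single-cell RNA-seq of the lungs of 2 WT and 2 ERG CKO mice was analysed. The authors dissociated the lungs, captured cells on the 10x Genomics platform and sequenced them on an Illumina NextSeq. Per the labels' processing notes, Cell Ranger 3.1.0 and the mm10 build were used. The deposited matrix gives UMI counts that were not normalized, with the 4 libraries in 1 matrix, and cell names carry the library title. The quality filter of the study is named without its limits, and the study keeps fewer cells than the 9363 barcodes of the matrix. The lowest barcode held 500 UMIs and 300 genes, and none was removed. Cell classes were named anew without the study's annotation of single cells, which can itself make values differ from those of the study.

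Cells were clustered in Seurat 5.3.0 (2000 variable genes, CCA alignment of the libraries, 30 dimensions, resolution 0.8), and ECs again with 20 dimensions and resolution 0.6. All Notch genes, Erg, sex-linked genes and, for ECs, the 355 further genes called in ECs were left out of the clustering. A cluster was named from at least 3 markers of a list, each detected in at least 10% of its cells with a log2 fold of at least 1 (above 0 for EC subtypes, a limit taken over from an earlier analysis). Scrublet (scanpy 1.11.5) called 66 cells (0.705%) doublets, which were kept.

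Counts were summed per library and class, which makes the mouse the replicate, and tested in edgeR 4.0.16 under R 4.3.3 (quasi-likelihood, TMM, filterByExpr and no covariates), with p adjusted by Benjamini-Hochberg over all genes of the class and a limit of 0.05. Classes needed at least 10 cells in every library. Differences of effect were tested as the interaction of class and group with the library as a term. All tests were two-sided, and an exact permutation test of 2 against 2 libraries cannot give a p below 0.333. Replicates of a group differed by more than sampling noise (chi-square per degree of freedom 15.89 and 17.38), so none was a repeated library. Labels name separate mice and not litters, and p-values measure the spread between 2 mice. Shares of cells and UMI counts carry counting error that is not shown.

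By the naming rule all 10 members may be named in any class, and values are printed for those that the results turn on. Of the further pathway genes those called in ECs, gCap ECs, aCap ECs, mural cells or fibroblasts are named, and for likeness the 3 genes of highest r among those with at least 20 CPM in a class. The members, lists and tests were chosen with earlier results of these data known. Alternatives were DESeq2 1.42.0, no filter, a replicate block, each replicate left out, doublets out, a 10% mitochondrial limit, no alignment and other resolutions. Alternatives chosen after seeing the data were adding the low-depth endothelial cluster, leaving out unnamed ECs, single gCap clusters and the same settings for the further genes and for the differences of effect. The code was tested on simulated data. Promoter windows were available for 7 of the 10 members, and positions come from GENCODE vM21, which matches the build of the counts.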

Additional observations from a re-analysis of the deposited data

Results flagged for a closer look

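The effect of ERG CKO differed between aCap and gCap ECs for 2 of the 8 Notch genes tested, by the test of the difference itself. Over all 9544 genes tested, 6.88% differed. For Notch1 the log2 fold change in aCap ECs minus that in gCap ECs was -1.58 (SE 0.23, adjusted p = 4.5e-06, edgeR), with aCap ECs at 252.5 and 226 CPM in WT against 57.4 and 55.6 CPM in ERG CKO. For Dll4 the difference was -1.42 (SE 0.30, adjusted p = 0.00112, edgeR), with 129 and 104 against 33.6 and 33.7 CPM. Both ERG CKO libraries were below both WT libraries for both genes. The value for Notch1 was called in all 9 alternatives run for it, and that for Dll4 in 8 of 9, the exception being clustering without alignment.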

How the results depend on the processing

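With 2 mice per group the depth of small classes limits the tests: artery ECs held 13 to 20 cells per library, mural cells of ERG CKO replicate 2 gave 6 UMIs of Hes1, and a missed threshold does not show equal levels. In aCap ECs the count of members called was 2 under all 12 alternatives, Notch1 and Dll4 under 11 of them and Notch1 and Jag2 (-1.38, adjusted p = 0.0340, edgeR) without alignment, and 6 to 9 further pathway genes were called against 8. No member was called in vein ECs or fibroblasts under any alternative run there. In ECs the count of members called was 1, and 3 without a filter on low counts, 0 under the 10% mitochondrial limit, 0 without alignment, 0 with the low-depth cluster added and 0 to 3 with a replicate left out (0 without either WT replicate, 2 when ERG CKO replicate 1 and 3 when ERG CKO replicate 2 was omitted). Further pathway genes called in ECs numbered 2, and 9 without the filter and 1 to 9 with a replicate left out (1 when WT replicate 1 and 9 when ERG CKO replicate 2 was omitted). In gCap ECs 0 members were called, and 2 without the filter, 2 in cluster 0 alone and 0 to 1 with a replicate left out (0 without WT replicate 2). The further genes there numbered 2, and 0 by DESeq2, 4 without the filter, 1 with doublets left out, 0 without alignment and 1 to 2 with a replicate left out. In artery ECs, mural cells and the difference between mural cells and ECs the count of members was 0, and 0 to 1 with a replicate left out. The causes were not tested. The number of all genes called moved with the setting too, given here for alternatives that kept all 4 libraries. In ECs it was 358, with a range of 264 to 1205 (1173 of 17021 without the filter). In gCap ECs it was 357, with a range from 3 without alignment to 800 of 16068 without the filter. In aCap ECs it was 763 (343 to 1055), in artery ECs 0 (0 to 40) and in mural cells 2 (2 to 36).

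Replicate numbers are shared between the groups, but the labels name no litter or batch behind them and there are only 2 pairs, so the pairing is not established. With the replicate number as a block, 3 members and 10 further genes were called in ECs and 2 members and 4 further genes in gCap ECs. Calls rose over all genes too, to 1205 of 10703 in ECs and 719 of 9885 in gCap ECs, against 358 and 357 without the block.

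No called value changed sign. Of the uncalled log2 fold changes, those that changed sign without alignment were Notch4 (0.15) and Jag2 (0.042) in gCap ECs, Notch4 in aCap ECs (0.014), Jag1 (0.21) and Hey1 (-0.29) in mural cells and Dll4 in fibroblasts (-0.035). Others were Hes1 in aCap ECs (-0.094 at resolution 0.4 and -0.0004 at EC resolution 0.3), Jag1 in mural cells (0.031 with the block, 0.0036 under the mitochondrial limit, 0.055 at resolution 0.4), Dll4 in fibroblasts (-0.018 with doublets out, -0.12 under the mitochondrial limit), and Hey1 (0.18) and Heyl (0.082) in fibroblasts by DESeq2. With a replicate left out, the uncalled values that changed sign ranged from -0.30 to 0.87 for Notch2 in ECs, from -0.13 to 0.82 for Notch2 in gCap ECs and from -0.10 to 0.11 for Hes1 in aCap ECs. In mural cells they ranged from -0.21 to 0.86 for Notch3, from -7.61 (1 ERG CKO library left, with 0 UMIs) to 0.30 for Notch4, from -0.67 to 0.17 for Dll4, from -0.36 to 0.26 for Jag1 and from -0.090 to 1.08 for Hey1. In fibroblasts they ranged from -0.49 to 0.076 for Notch1, from -0.79 to 0.40 for Notch2, from -2.30 to 0.38 for Notch3, from -0.22 to 0.54 for Dll4, from -0.061 to 1.13 for Jag1, from -0.69 to 0.93 for Hey1 and from -0.93 to 0.92 for Heyl.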
